A study of Caenorhabditis elegans with 2 samples.

Results

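Divergent protein-coding promoters are stretches of DNA from which a pair of genes is read in opposite directions. The regions described here were listed from a precipitation of the T-box factor TBX-8 from Caenorhabditis elegans embryos. Their summit, the position of highest signal, fell in the promoter of a plus-strand gene and of a minus-strand gene at once. A promoter was counted from 1000 bp upstream to 200 bp downstream of a protein-coding transcript start, and summits with a gene for tRNA, rRNA, snRNA or snoRNA at most 200 bp away were left out. This held for 745 of the 16355 regions of the list called on the pooled replicates. They lay at 656 different pairs of nearest starts and at 1306 genes. In 743 of the 745 the minus-strand start lay to the left of the plus-strand start, so that the genes pointed away from each other, and in the other two the transcripts overlapped at their starts.

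The data are chromatin immunoprecipitation with sequencing (ChIP-seq) from strain RW10470, which carries the allele st10470, in which tbx-8 is fused to TY1, EGFP and 3xFLAG and joined with unc-119(+), in an unc-119(ed3) background, precipitated with an antibody to GFP. The single group held 2 biological replicates of whole embryos, collected by egg bleaching, of mixed sex and mixed stage, labelled with an age of 2.5 hours. No second condition was given, so the regions are compared with 4463 pooled regions at promoters of 1 direction only and with all pooled regions. Whole embryos mix all cell types, the labels do not say which promoter drives the fusion or how much of the TBX-8 in the strain is tagged, and a precipitation without the tag was not analysed here.

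T-box proteins bind DNA through a conserved domain, and the word GGTGTG is the core of the site that most of them recognise. In C. elegans, tbx-8 acts together with its neighbour tbx-9 in shaping the embryo's body. The worm genome is compact, and genes in head-to-head arrangement share the DNA between them as an upstream region. Many worm transcripts receive a spliced leader, so that an annotated start can be the splice site and lie downstream of the place where transcription began.

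The sequences around 10 of the 19 highest summits are shown because the results turn on the DNA between the starts and on the words found there. They are the 10 members of highest signal on chromosomes III, IV and V in which the 50 bp to each side of the summit overlapped no annotated exon. Each line gives the minus-strand gene, the plus-strand gene, the position in WBcel235 and the plus strand of the RefSeq genome 5′ to 3′. Capitals mark GGGCGG, which is the core of a GC box, the repeat GAGAGA, and a pair of words of 7 bases that ranked highest at these summits. The first of the pair is GCCGCAC. The second is AAGTGCG. Each was marked on either strand.
K01G5.10 and tasp-1, chrIII:10759203-10759303: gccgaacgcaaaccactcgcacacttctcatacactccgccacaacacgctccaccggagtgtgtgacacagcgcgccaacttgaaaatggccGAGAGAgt
rpl-15 and K11H12.8, chrIV:654910-655010: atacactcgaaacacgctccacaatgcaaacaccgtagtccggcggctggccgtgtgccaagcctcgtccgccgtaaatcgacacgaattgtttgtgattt
ecps-1 and atx-2, chrIII:10461262-10461362: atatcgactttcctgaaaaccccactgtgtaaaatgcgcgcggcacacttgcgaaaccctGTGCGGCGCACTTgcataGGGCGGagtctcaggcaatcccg
snx-13 and snr-1, chrIV:17087551-17087651: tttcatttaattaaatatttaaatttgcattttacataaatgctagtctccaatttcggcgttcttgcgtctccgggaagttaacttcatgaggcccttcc
rpl-20 and Y17G9B.5, chrIV:4750030-4750130: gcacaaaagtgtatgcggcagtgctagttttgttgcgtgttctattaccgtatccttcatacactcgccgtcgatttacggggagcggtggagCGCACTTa
nmad-1 and hach-1, chrIII:5555067-5555167: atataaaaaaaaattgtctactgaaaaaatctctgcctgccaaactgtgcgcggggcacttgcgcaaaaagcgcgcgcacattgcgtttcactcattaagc
rnf-121 and C16C10.4, chrIII:4171140-4171240: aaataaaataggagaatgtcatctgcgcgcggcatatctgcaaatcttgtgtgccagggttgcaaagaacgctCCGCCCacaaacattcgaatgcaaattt
Y22D7AL.10 and hsp-60, chrIII:1619070-1619170: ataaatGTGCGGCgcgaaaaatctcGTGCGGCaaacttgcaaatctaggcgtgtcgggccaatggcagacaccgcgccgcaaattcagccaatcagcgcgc
piit-1 and sas-5, chrV:11610624-11610724: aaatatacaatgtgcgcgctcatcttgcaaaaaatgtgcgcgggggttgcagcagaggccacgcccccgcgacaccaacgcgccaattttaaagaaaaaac
gei-6 and krr-1, chrV:7231004-7231104: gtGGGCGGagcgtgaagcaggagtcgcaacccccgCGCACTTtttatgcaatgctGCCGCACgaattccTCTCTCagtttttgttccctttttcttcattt
In the stretch between ecps-1 and atx-2, GTGCGGC and CGCACTT overlap in a run of capitals and GGGCGG follows a few bases later. The window upstream of hsp-60 holds GTGCGGC more than once, and the window between gei-6 and krr-1 holds a match to each of the 4 words. The windows at snx-13 and snr-1, rpl-15, nmad-1 and piit-1 hold none of them.

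Regions at divergent promoters were in the thresholded list more often than regions at promoters of 1 direction. The thresholded list, which the authors kept after comparing the replicates by the irreproducible discovery rate, held 521 regions, and these were the 521 pooled regions of highest signal. It held 66 of the 745 divergent regions, a share of 8.86% (95% Wilson interval 7.02 to 11.1%), and 140 of 4463 regions at 1-direction promoters, a share of 3.14% (2.66 to 3.69%). Over all pooled regions the share was 3.19%. That total includes 509 regions within 200 bp of a small RNA gene, of which 195 were thresholded, or 38.3% (34.2 to 42.6%). It also includes 10638 regions at neither promoters nor small RNA genes, of which 120 were thresholded, or 1.13% (0.944 to 1.35%). Both classes are part of every value given over all pooled regions. Divergent regions were 745 of 5208 promoter regions in the pooled list, or 14.3%, and 66 of 206 in the thresholded list, or 32.0% (26 to 38.7%). The intervals cover counting error only, since regions and not animals are their units.

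A looser call gave the same order. The deposited q-value was below 0.05 at 111 divergent regions, or 14.9% (12.5 to 17.6%), and at 255 regions of 1-direction promoters, or 5.71% (5.07 to 6.43%), with 5.39% over all pooled regions. The replicates did not differ in this order. Among the 521 highest regions of replicate 1 were 60 of its 879 divergent regions, or 6.83% (5.34 to 8.69%), and 147 of its 6387 regions at 1-direction promoters, or 2.30% (1.96 to 2.70%), against 2.16% over the whole list. In replicate 2 the 521 highest held 69 of 868 divergent regions, or 7.95% (6.33 to 9.94%), and 142 of 5605 regions at 1-direction promoters, or 2.53% (2.15 to 2.98%), against 2.5% over the whole list. In all 4 calls the divergent interval lay above that of the 1-direction promoters.

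**Figure D1:**
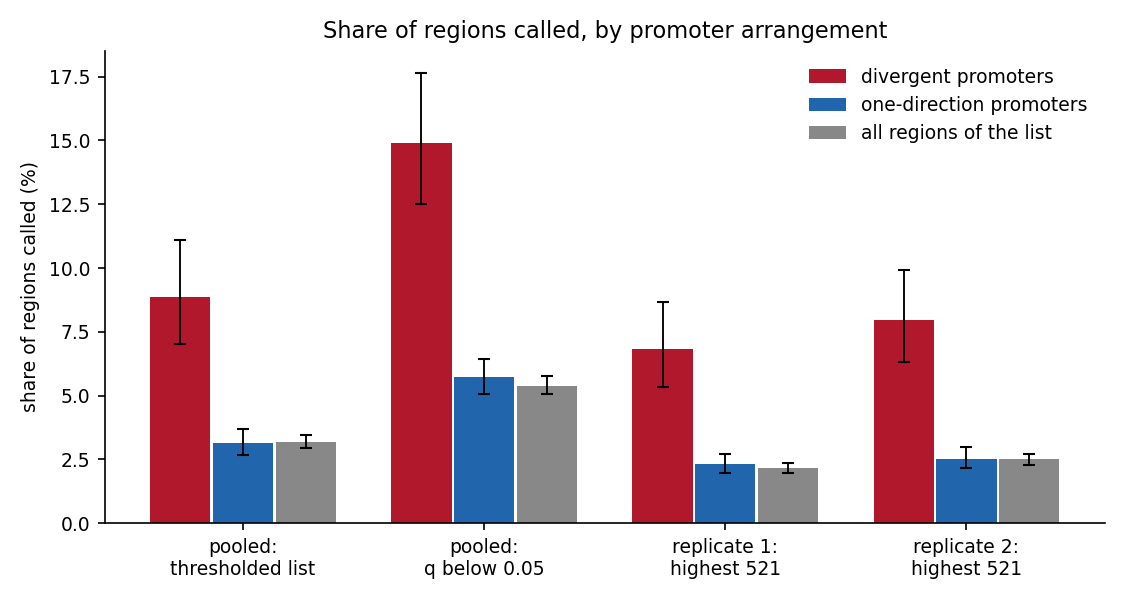
Bars give the percentage of regions called in the pooled list by the thresholded list and by q below 0.05, and in each replicate by its 521 highest regions; error bars are 95% Wilson intervals. Divergent promoters (red) reach 8.86%, 14.9%, 6.83% and 7.95%, and in every call their interval lies above those of 1-direction promoters (blue) and all regions (grey).

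The divergent share was also the higher among summits alike in their distance from a start or in base composition. Summits were sorted into 5 bands by the distance to the nearest start, and in each band the divergent share was the higher. For summits over 100 and up to 200 bp from a start, 29 of 217 divergent regions were in the thresholded list, or 13.4% (9.47 to 18.5%), and 28 of 870 at 1-direction promoters, or 3.22% (2.24 to 4.61%). For summits over 400 bp away the shares were 5.26% of 76 (2.07 to 12.8%) and 3.04% of 1842 (2.35 to 3.93%). The intervals were separate in the band over 100 and up to 200 bp and overlapped in the other 4 bands. By GC content of the window reaching 100 bp to each side of the summit the divergent share was higher in each of 5 bands, with separate intervals in 4 of them and overlap from 45 to 50% GC. Below 35% GC it was 3.39% of 236 divergent regions (1.73 to 6.55%) and 0.808% of 1362 regions at 1-direction promoters (0.452 to 1.44%). At 50% GC or more it was 23.6% of 55 (14.4 to 36.3%) and 9.15% of 481 (6.88 to 12.1%).

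The signal of a region is the deposited score of the peak caller, whose definition is not given in the sources used here, and it can be compared only within a list. Its median was 39.3 at divergent promoters, with quartiles of 32.0 and 52.2, and 35.2 at 1-direction promoters, with quartiles of 30.9 and 42.5. Over all pooled regions the median was 34.6, so most divergent regions lay close to the bulk of the list. The highest divergent region had a signal of 259 and rank 17 of the pooled list. The 66 thresholded members had a median of 102 and began at 76.5.

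The highest member lay between K01G5.10, a haloacid dehalogenase-like hydrolase, and tasp-1, the worm homolog of the protease taspase, on chromosome III. Its signal was 126 in replicate 1 and 134 in replicate 2, at ranks 28 and 14 of those lists. The summit was 54 bp from the tasp-1 start and 731 bp from that of K01G5.10, in intergenic DNA.

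The region between rpl-15, which encodes the large-subunit ribosomal protein eL15, and K11H12.8 on chromosome IV came second, with a pooled signal of 224. It had a signal of 138 in replicate 1, the highest of any member there, and 83.0 in replicate 2. Its summit stood near the middle of the gap, 384 bp from the rpl-15 start and 430 bp from the start of K11H12.8. A ribosomal protein gene was also part of the region between rpl-20 and Y17G9B.5, with signals of 84.9 and 101.3 in replicates 1 and 2, and of the region between rps-19 and hsr-9, with signals of 86.7 and 50.7.

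The head-to-head histone genes his-67 (H4) and his-68 (H2A) on chromosome I shared the third region, with a pooled signal of 221 and signals of 126 in replicate 1 and 95.7 in replicate 2. Histone genes are present in many near-identical copies, and reads from such copies can be placed on the wrong one, so values at histone pairs are uncertain. The pair mlcd-1, a malonyl-CoA decarboxylase, and idhg-1, a subunit of the NAD-dependent isocitrate dehydrogenase, had signals of 105 in replicate 1 and 99.9 in replicate 2. The gap between ears-2, the mitochondrial glutamyl-tRNA synthetase, and uncp-18 was the shortest of the thresholded members at 92 bp, with the summit 45 bp from the ears-2 start and 47 bp from the other, and it had signals of 99.3 and 97.5.

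In the region upstream of hsp-60, the mitochondrial chaperonin, and of Y22D7AL.10, its 10 kDa partner, the replicates were less alike, with signals of 99.6 in replicate 1 and 50.5 in replicate 2. The genes of this pair encode proteins that act as a single folding machine. Another chaperone pair, F44E5.4 and F44E5.5, both annotated as Hsp70, had signals of 67.9 and 49.1. As these genes are close copies of each other, reads could be shared between them.

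RNA-processing genes were at snx-13 and snr-1, where snr-1 encodes the Sm protein D3 of the spliceosome and the signals were 103 and 87.6 in replicates 1 and 2, and at rsr-1 and sri-5, where rsr-1 encodes a PWI-domain protein and the signals were 65.9 and 53.7. Chromatin genes were at C16C10.4, a SAP18-like subunit of a histone deacetylase complex, which shared its region with rnf-121 (84.6 and 71.1), and at set-16, which shared a region with drr-2 (69.8 and 53.5). The centriole assembly gene sas-5 lay opposite piit-1 (69.2 and 74.6), and krr-1, of the small-subunit processome that matures ribosomal RNA, lay opposite gei-6 (75.6 and 57.7).

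The other members among the 25 highest were E04F6.6 and pcrg-1, ecps-1 and atx-2, spe-48 and Y51F10.11, nmad-1 and hach-1, dnj-29 and ndua-2, T18D3.9 and T18D3.1, dad-1 and tre-1, B0495.9 and sre-1, simr-1 and C06A5.3, and tag-266 and tag-267. Their pooled signals ran from 116 to 192. In 24 of the 25 highest members the region was among the 521 highest of both replicates, the exception being tag-266 and tag-267 at rank 819 of replicate 1 and rank 97 of replicate 2. All 25 summits lay between the starts, 23 in intergenic DNA and the other two within an annotated noncoding gene. At the edge of the thresholded list, larp-1 and wip-1 with a pooled signal of 76.6 and Y45G5AM.9 and algn-5 with 76.5 were inside, and apb-1 and mdt-19 with 75.5 and gmpr-1 and fipp-1 with 75.4 were outside.

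Most summits of thresholded members stood between the starts of the paired genes, a position that the membership rule itself favours, since it allows a summit at most 200 bp downstream of either start. The distance between the nearest starts had a median of 522 bp (92 to 1423 bp) at the 66 thresholded members and of 544 bp over all 745. The summit lay between the starts at 63 of 66 thresholded members, or 95.5% (87.5 to 98.4%), and at 581 of 745 members, or 78.0% (74.9 to 80.8%). It lay in the central part of the gap, from 25% to 75% of the distance, at 42 of 66, or 63.6% (51.6 to 74.2%), and at 355 of 745, or 47.7% (44.1 to 51.2%). There was no preference for a strand, since 32 thresholded summits were nearer to the plus-strand start and 34 nearer to the minus-strand start. The nearest start was a median of 157 bp from a thresholded summit and 131 bp from a member's summit overall. Of the 66 thresholded summits, 54 were intergenic, 5 lay in a noncoding gene, 3 in an intron, 2 in a 5′ UTR and 2 in a coding exon. The 3 summits outside the gap were at spd-5 and npp-6, in an intron, and at the histone pairs his-60 and his-59 and his-63 and his-64, both in a coding exon.

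**Figure D2:**
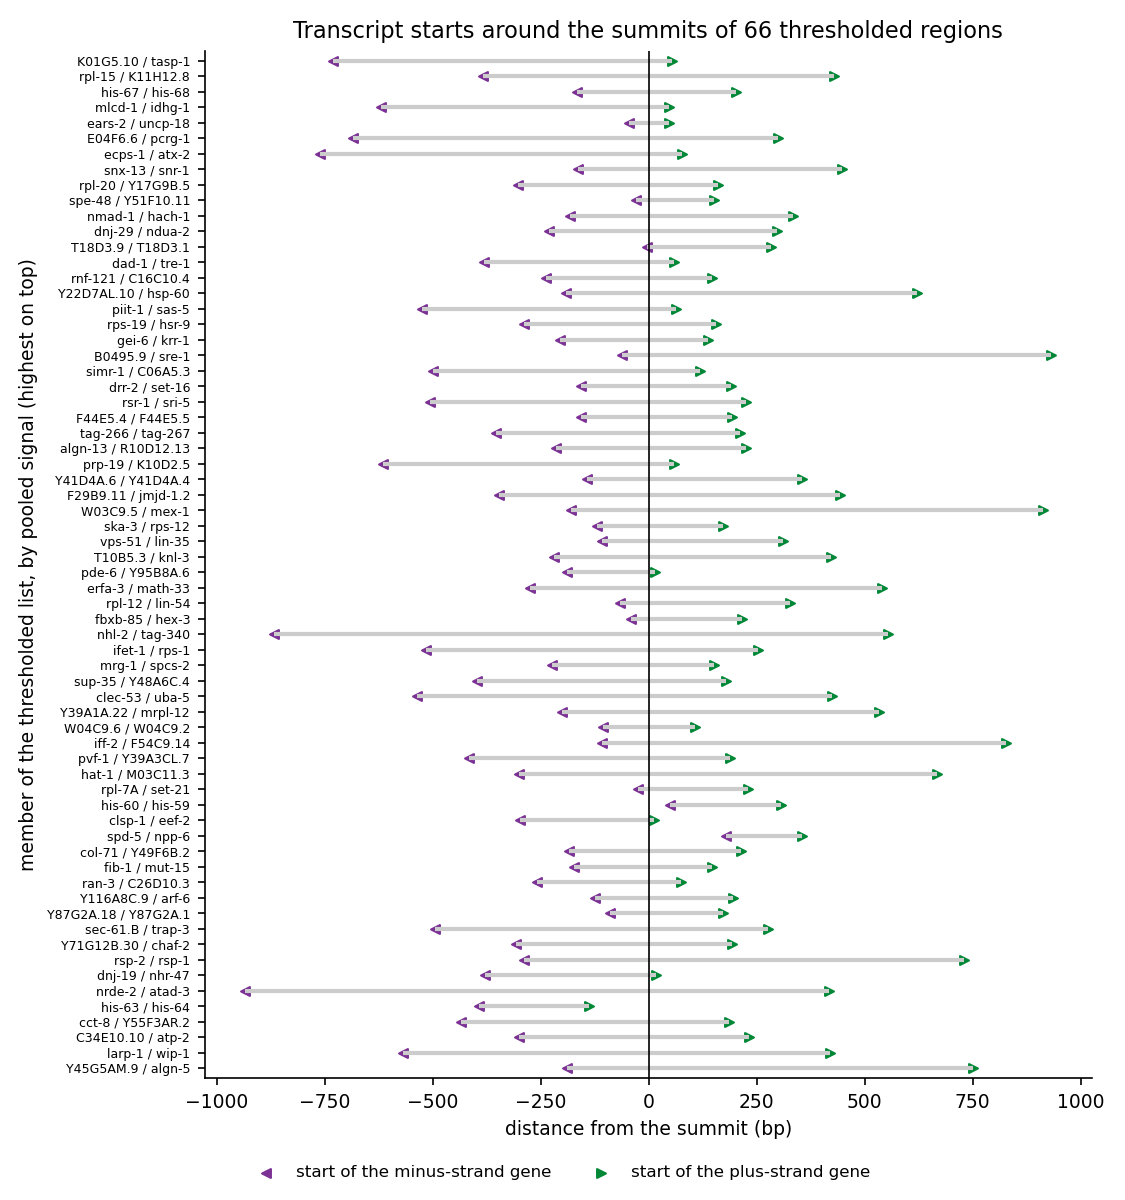
Each line is a thresholded member, highest pooled signal on top, with the start of the minus-strand gene (purple) and of the plus-strand gene (green) at their distance in bp from the summit (black line at 0). The summit falls between the starts in 63 of 66 members, and the distance between the starts runs from 92 to 1423 bp.

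Counted by genes, few head-to-head pairs had a thresholded region. There were 2556 neighbouring pairs whose outermost starts pointed away from each other at most 2000 bp apart. A member lay at 592 of them, or 23.2% (21.6 to 24.8%), and a thresholded member at 63, or 2.46% (1.93 to 3.14%). Of 14861 starts outside such pairs, 0.754% (0.627 to 0.906%) had a thresholded region, though the DNA searched at a single start differs in length from that searched at a pair. By the distance between the starts, a thresholded member was at 5 of 372 pairs up to 250 bp apart, or 1.34% (0.575 to 3.11%), at 27 of 542 pairs over 250 and up to 500 bp, or 4.98% (3.45 to 7.15%), and at 27 of 827 over 500 and up to 1000 bp, or 3.26% (2.25 to 4.71%). Over 1000 bp it was 4 of 815, or 0.491% (0.191 to 1.26%). The last value is limited by the membership rule, which asks for both starts within 1000 bp downstream of the summit, and a longer gap also holds more DNA.

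**Figure D3:**
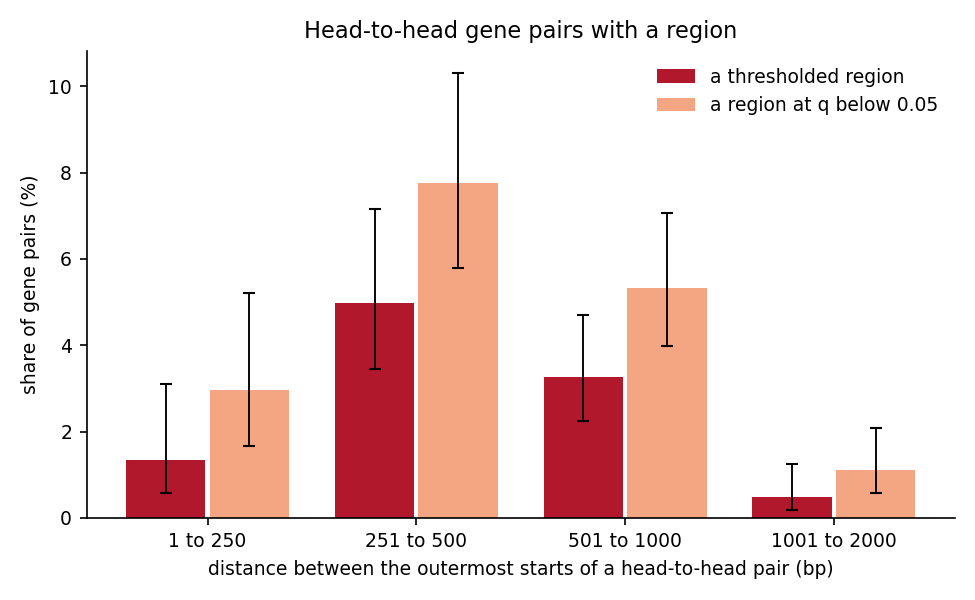
Bars give the percentage of head-to-head gene pairs with a thresholded region (red) or a region at q below 0.05 (orange), by the distance in bp between their outermost starts; error bars are 95% Wilson intervals. Pairs over 250 and up to 500 bp apart have the highest shares, 4.98% and 7.75%.

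Most thresholded members were found in both replicates. The thresholded list was itself kept after comparing the replicates, so it favours such regions. With summits within 100 bp, 312 of 745 members had a partner in both replicate lists, or 41.9% (38.4 to 45.5%), and 1477 of 4463 regions at 1-direction promoters, or 33.1% (31.7 to 34.5%), against 30.5% over all pooled regions. Among the thresholded members it was 59 of 66, and all 66 overlapped a region of each replicate. In 37 of the 66 the partner was among the 521 highest regions of both replicates. This held for 295 of all pooled regions, or 1.8%. That is not a like base, since the 66 belong to the 521 pooled regions of highest signal. The same share over all thresholded regions was not computed. Over the 312 members found in both replicates, the signals of replicates 1 and 2 had a Spearman's rho of 0.55 and a Pearson's r of log2 signal of 0.71, given as a description of these regions, which share their 2 libraries. By set, rho was 0.51 over the 59 thresholded members, 0.09 over the 220 with q of 0.05 or above, and -0.61 over the 33 in between. The pooled signal of the same replicates bounds the set in between on both sides. Members with q of 0.05 or above are bounded too, with pooled signals from 27.5 to 62.5. Such bounds bear on rho, so the 0.09 does not show that weaker members lack agreement.

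Some thresholded members rested mostly on a single replicate. At 10 of the 66 the rank was over 1000 in a replicate. Chosen after their values were seen, the widest differences were at his-63 and his-64, with rank 285 in replicate 1 and 4252 in replicate 2, at spd-5 and npp-6, with ranks 3291 and 132, and at clsp-1 and eef-2, with ranks 2521 and 167. A further 7 members had no summit within 100 bp in at least 1 of the replicates. Since all 66 overlapped a region of each replicate, this does not show that the signal there was weak. For example, another region at his-60 and his-59 had rank 276 in replicate 2. Another region at sec-61.B and trap-3 had rank 748 in replicate 1. Sets of gene pairs at the 521 highest regions of each replicate overlapped in part: 42 pairs were shared, which was 71.2% of the 59 pairs of replicate 1 and 60.9% of the 69 pairs of replicate 2, and all 42 were among the 66 pairs with a thresholded member.

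**Figure D4:**
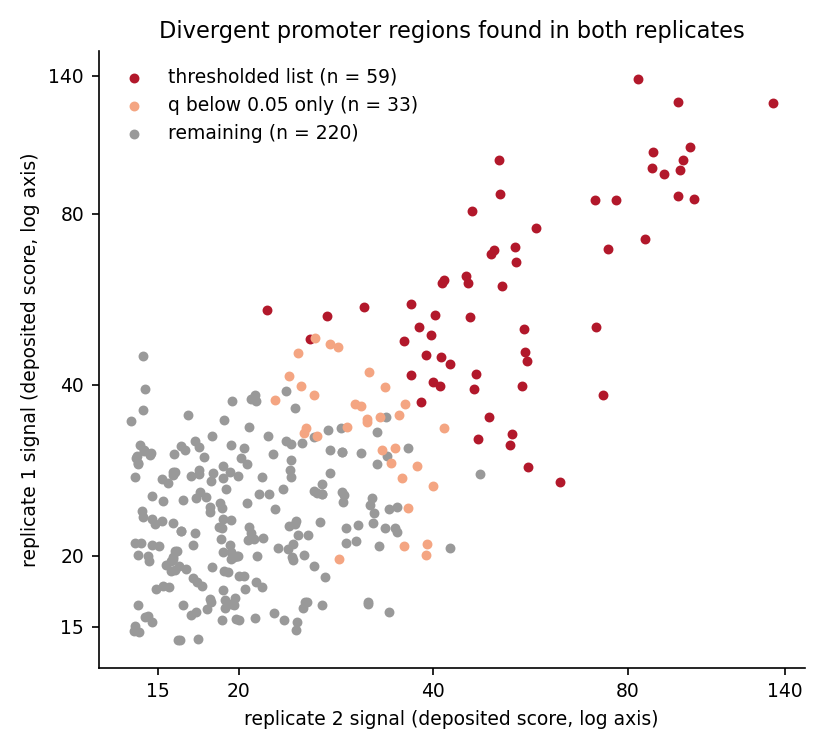
Each point is a divergent promoter region found in both replicates, with the deposited signal of replicate 2 on the horizontal and of replicate 1 on the vertical axis, both log scaled. The 59 thresholded members (red) spread to signals above 120 in each replicate, and some of them are high in replicate 2 and low in replicate 1 or the reverse.

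The DNA under thresholded summits was richer in GC than the DNA beside it, and few of these windows held the T-box core word. Median GC content of the window, 100 bp to each side of the summit, was 43.8% at the 66 thresholded members and 37.8% at the 634 members with q of 0.05 or above, against 46.0% at the 140 thresholded regions of 1-direction promoters and 39.3% over all pooled regions. In windows of 25 bp, mean GC content was 51.5% at the thresholded summits and 40.5% at the members with q of 0.05 or above, against 52.3% at the thresholded 1-direction summits. It was 35.3% at 100 bp to the left and 33.5% at 100 bp to the right of the thresholded summits, so the GC-rich stretch was narrow.

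The core GGTGTG, searched on both strands, was in 2 of 66 thresholded windows, or 3.03% (0.835 to 10.4%). At the divergent regions among the highest of a single replicate it was in 3 of 60 in replicate 1, or 5%, and in 4 of 69 in replicate 2, or 5.80%. It was in 6 of the 45 members that passed q below 0.05 only, or 13.3% (6.26 to 26.2%), and in 37 of 634 members with q of 0.05 or above, or 5.84% (4.26 to 7.94%), in 20 of 140 thresholded windows of 1-direction promoters, or 14.3% (9.44 to 21%), and in 6.89% of all pooled windows. In flanks of the thresholded members, windows of the same length 500 bp to either side, it was in 4 of 132, also 3.03%. The longer site AGGTGTGA, which contains the core, was in 0 of 66 thresholded windows, which allows a share of up to 4.55%. Over all pooled windows its share was 0.569%, so the count of 0 does not set these members apart. The members with the core were spe-48 and Y51F10.11 and fbxb-85 and hex-3, the second pair named after its values were seen. The absence of these letters from a window says nothing of whether TBX-8 was bound there.

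GGGCGG, the core of the GC box bound by SP1-type zinc finger proteins, was in 20 of 66 thresholded windows, or 30.3% (20.6 to 42.2%), and in 54 of 634 members with q of 0.05 or above, or 8.52% (6.59 to 10.9%). At thresholded 1-direction promoters it was in 21 of 140, or 15%, and the share was 6.82% over all pooled windows and 3.79% in the flanks. Read the other way, 25.3% of the 79 members with GGGCGG were thresholded and 6.91% of the 666 without it, and within the thresholded members the median signal was 141 with the word and 91.4 without. GAGAGA, a repeat bound by GAGA-type factors in flies, was in 16 of 66 thresholded windows, or 24.2% (15.5 to 35.8%), with 15.3% (12.7 to 18.3%) at members with q of 0.05 or above and 32.1% (25 to 40.3%) at thresholded 1-direction promoters. TATAAA was in 6 of 66 thresholded windows, or 9.09% (4.23 to 18.4%), and in 20.8% (17.8 to 24.2%) of the members with q of 0.05 or above. At thresholded 1-direction promoters it was in 10.7% (6.60 to 16.9%). The E-box CACGTG was in 2 of 66 and the GATA word GATAAG in 2 of 66 thresholded windows, both 3.03% (0.835 to 10.4%), with 3.94% and 6.62% at members with q of 0.05 or above. The splice-acceptor type word TTTCAG was in 24.2% (15.5 to 35.8%) and a run of 8 T in 15.2% (8.44 to 25.7%) of the thresholded windows, with 33.9% and 17.8% at members with q of 0.05 or above. Over all pooled windows GAGAGA was in 16.3%, TATAAA in 17.0%, CACGTG in 4.28% and GATAAG in 6.87%. TTTCAG was in 29.7% of them and the run of T in 21.1%. Each of these pooled shares lay inside the interval of the thresholded members. A word rich in G and C is more frequent in GC-rich windows, and its part in these shares was not tested.

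Words of 7 bases, 8192 in all when each is joined to its reverse complement, were ranked by how much more often they occurred in thresholded windows than in all pooled windows. The ranking chose the words for their share in the thresholded members, which is therefore a description. First was GCCGCAC, in 15 of 66, or 22.7%, against 2.01% of all pooled windows, and second was AAGTGCG, in 13 of 66, or 19.7%, against 2.01%. In the 45 members that passed q below 0.05 without reaching the thresholded list, which are not among the 66, the words were in 6, or 13.3% (6.26 to 26.2%), and in 8, or 17.8% (9.29 to 31.3%). At members with q of 0.05 or above they were in 2.37% (1.44 to 3.87%) and 4.57% (3.20 to 6.49%). At thresholded 1-direction promoters GCCGCAC was in 11.4% (7.16 to 17.8%) and AAGTGCG in 5.00% (2.44 to 9.96%). At least 1 of these words or GGGCGG was in 33 of the 66 thresholded windows. The choice of the words from these same windows favours a high share, and the count was not made in other sets. Leaving GGGCGG out, at least 1 of the words was in 23 of the 66. It was in 14 of the 45 members that passed q below 0.05 only, or 31.1% (19.5 to 45.7%). At members with q of 0.05 or above it was 44 of 634, or 6.94% (5.21 to 9.19%). GCCGCAC was in 0 of the 132 flanks, which allows a share of up to 2.27%.

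**Figure D5:**
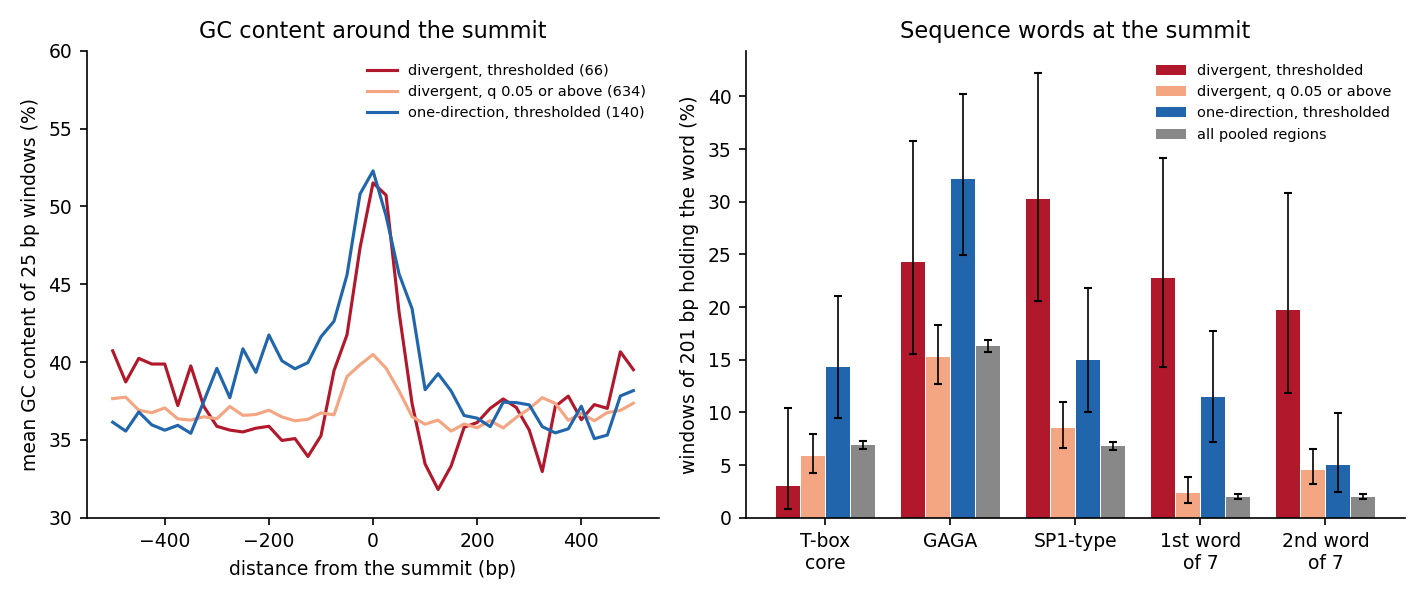
Left, mean GC content in percent of 25 bp windows against distance in bp from the summit, with lower coordinates to the left; the thresholded divergent summits reach 51.5%. Right, percentage of windows, 100 bp to each side of the summit, with the T-box core, the GAGA and SP1-type words and the highest-ranked words of 7 bases, with 95% Wilson intervals; the SP1-type word is in 30.3% of thresholded divergent windows and the T-box core in 3.03%.

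The X chromosome had few divergent members. It held 33 of 745 members, or 4.43% (3.17 to 6.16%), and 1 of 66 thresholded members, the pair T18D3.9 and T18D3.1, against 38 of 140 thresholded regions of 1-direction promoters, or 27.1% (20.5 to 35%). It also held few of the head-to-head pairs, 178 of 2556, or 6.96% (6.04 to 8.02%). Of its own members 1 of 33 was thresholded, or 3.03% (0.537 to 15.3%), and of its regions at 1-direction promoters 38 of 729, or 5.21% (3.82 to 7.07%), and these intervals overlap. Chromosome III held 20 of the 66 thresholded members, or 30.3% (20.6 to 42.2%), against 21.4% (15.4 to 28.9%) of thresholded regions at 1-direction promoters and 15.1% (13.7 to 16.5%) of head-to-head pairs. It held 22.95% of all 745 members, 20.9% of the thresholded list and 18.4% of all pooled regions. The shares of all members and of the thresholded list lay inside the interval of its thresholded members, so they do not set those apart. The share of all pooled regions lay below that interval. Chromosome V held 8 of 66, or 12.1% (6.27 to 22.1%), against 17 of 140 thresholded regions at 1-direction promoters, also 12.1%, and 25.7% (24.0 to 27.4%) of the pairs. Its shares of all members, 15.6%, and of all pooled regions, 15.7%, lay inside the interval of its thresholded members. Only the share of pairs lay above that interval.

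The genes at divergent members included many of the ribosome, the spliceosome, translation and protein folding. Over all 19973 protein-coding genes, 6.54% were the nearest gene on their strand at a member, and of the 1306 genes at members 10.1% were at a thresholded one. Among 81 genes of cytoplasmic ribosomal proteins, 29 were at a member, or 35.8%, and 7 of the 29 at a thresholded one, namely rpl-15, rpl-20, rps-19, rps-12, rpl-12, rps-1 and rpl-7A. Of 33 splicing genes 13 were at a member and 4 at a thresholded one, and of 59 chaperone genes 20 were at a member and 4 at a thresholded one, namely dnj-29, hsp-60, dnj-19 and cct-8. Of 33 translation factor genes 14 were at a member and 2 at a thresholded one. Many of these genes stand in head-to-head pairs. The pairs held 49 of the 81 ribosomal protein, 24 of the 33 splicing, 32 of the 59 chaperone and 19 of the 33 translation factor genes. Of all 19973 genes they held 5112, or 25.6%. How far this arrangement accounts for the counts at members was not tested.

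Head-to-head pairs held 64 of the 72 histone genes, or 88.9%, against 25.6% of all protein-coding genes. Of 72 histone genes 18 were at a member and 6 of the 18 at a thresholded one, in the pairs his-67 and his-68, his-60 and his-59, and his-63 and his-64. These were 3 regions, not 6 independent ones. The splicing genes rsp-1 and rsp-2 were the other thresholded pair with both genes in a single list, with a signal of 39.8 in replicate 1 and 41.0 in replicate 2. The lists hold genes by name, so F44E5.4, F44E5.5 and Y22D7AL.10 are not counted among the chaperones. Of 41 respiratory chain genes 12 were at a member, or 29.3%, and of 70 mitochondrial ribosome genes 16, or 22.9%, against 6.54% of all protein-coding genes. Proteasome genes (27.3%) and tRNA synthetase genes (22.6%) were also above that share. Head-to-head pairs held 38.6 to 66.7% of the genes in these lists. Of the 12 respiratory chain genes 1 was at a thresholded member, or 8.33%, and of the 16 mitochondrial ribosome genes 1, or 6.25%. These shares, each resting on 1 gene, were near the 10.1% of all genes at members. None of the 9 proteasome genes, 8 genes of RNA polymerase, Mediator and TAFs and 8 replication and cell cycle genes at members was at a thresholded one, which allows shares of up to 33.3% for 9 genes and 37.5% for 8. Of the other lists, 3 of 12 genes of small GTPases and vesicle traffic at members were at a thresholded one, 1 of 7 tRNA synthetase genes, 1 of 5 of the ubiquitin system, 1 of 4 of RNA helicases and the nucleolus, 0 of 2 of kinesins and tubulins and 0 of 1 bHLH gene. In these small lists a single gene moves the share by several percent.

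Few genes of developmental regulation and of differentiated cells were at divergent members. Of 269 nuclear receptor genes 3 were at a member, or 1.12%, of 63 ceh homeobox genes 2, or 3.17%, of 194 collagen genes 7, or 3.61%, and of 1253 chemoreceptor genes 14, or 1.12%. Head-to-head pairs held 16.4% of the nuclear receptor, 15.9% of the ceh, 22.7% of the collagen and 21.3% of the chemoreceptor genes, against 25.6% of all protein-coding genes. Of 25 marker genes of epidermis and muscle, 0 were at a member, which allows a share of up to 12% and so does not set them apart from all genes, and 1 of the 25 was in a head-to-head pair. Where such a gene was at a thresholded member, its partner was not in the same list. The gene nhr-47 shared its region with the chaperone gene dnj-19, and col-71 with Y49F6B.2, a homolog of a ribosomal RNA processing factor. The partner of sri-5 was rsr-1, and that of sre-1 was B0495.9, annotated as an uncharacterized protein. The lists do not show which gene of a pair a region acts on.

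No T-box gene was at a divergent member. Of the 22 genes in the list 0 were at a member, which allows a share of up to 13.6%, and 4 stood in head-to-head pairs. The genes tbx-9 and tbx-8 themselves are head-to-head, with outermost starts 5491 bp apart, which is too far for a single summit to meet the rule at both. No pooled region lay within 2000 bp of a start of either gene.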

How the data were processed

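The authors deposited, per the labels, regions called on each replicate against a control, regions called after pooling the replicates, and the thresholded regions left by the irreproducible discovery rate step, all on ce11 (the same assembly as WBcel235). The pooled list is labelled as peaks and background. The deposited signal is a score without a stated definition, and the deposited −log10 q-value gave the calls at q below 0.05. Names of an aligner or peak caller were not given in the sources used here. Since the lists carry no read numbers, depth is unknown.

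Starts and biotypes came from Ensembl release 115 (29314 protein-coding starts and 1107 small RNA genes), bases and product names from the RefSeq genome. Coordinates are 1-based. Regions within 200 bp of a small RNA gene numbered 509, and 10638 met neither rule. Replicate summits were matched within 100 bp. Sequence windows reached 100 bp to each side of the summit. Shares carry 95% Wilson intervals, which cover counting error only, and no p-value is given. A count of 0 is given with the limit that 3 counts allow, except for gene lists with fewer than 3 genes at members. Members, 9 words and 22 gene lists were chosen with earlier results of these data known. Named genes are those nearest the 25 highest members, up to 3 per list, T-box genes and the regions beside the threshold; other genes, among them the remaining ribosomal protein, chaperone and histone genes at thresholded members, were named after their values were seen. Class assignment and matching were tested on simulated regions. The alternatives are given in the closing section. Python 3.11.15, numpy 2.4.6, pandas 2.3.3, scipy 1.17.1 and matplotlib 3.10.9 were used.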

Additional observations from a re-analysis of the deposited data

How the results depend on the processing

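A narrower promoter window, from 500 bp upstream to 100 bp downstream, left 391 members, with 17.9% at q below 0.05, a median signal of 42.1 and 47.1% found in both replicates, while the share in the thresholded list, 11%, stayed inside its interval. Under the alternatives that redefine the promoters, the share of regions at 1-direction promoters in the thresholded list was 3.08 to 4.10%, below the divergent share in each. Using the outermost start of each gene, 500 bp around small RNA genes, head-to-head starts only or 1 region per pair left at least 656 members and kept the shares called, the median signal and the share found in both replicates inside their intervals. Of the other call rules, q below 0.05 gave 14.9% and the 260 highest regions 4.43%. Matching by overlap found 68.7% of the members in both replicates and matching within 200 bp found 57.4%. Median GC content at the thresholded members was 51% with 50 bp to each side of the summit and 38.7% with 150 bp, while the shares of the 3 words tested stayed inside their intervals. Head-to-head pairs at most 1000 bp apart held a member in 29.7% and a thresholded one in 3.39%.

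With a single replicate in place of the pooled list, the share of divergent regions called was 6.83 to 7.95% by the highest regions and 11.8 to 11.9% at q below 0.05. The 6.83% fell below the pooled interval of 7.02 to 11.1%, and both q shares fell below that of 12.5 to 17.6%. The share of thresholded windows with GGTGTG was 5 to 5.80%, against 3.03% in the pooled list. The share of head-to-head pairs with a member was 26.4% with either replicate, above the pooled interval of 21.6 to 24.8%. Summits between the starts were 88.3 to 98.6%, the higher value just above the pooled interval of 87.5 to 98.4%. The shares of chromosomes III and X and the counts of ribosomal protein, histone, splicing and chaperone genes changed little, the shares staying inside their intervals and the counts within 2 genes. The settings for q, and for pairs, positions, chromosomes and gene lists by replicate, were chosen after seeing the data. No paired analysis was possible because the series holds 1 group. With 2 replicates the spread of a share rests on a pair of values, and the causes of these shifts were not tested.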
